A study of Mus musculus with 7 samples.

Results

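Sites at which reporter output was at least 2-fold below the plasmid input with the promoter labelled pR-Ea, but not with SCP1 or pPGK, numbered 809 of the 30857 genomic bins compared, or 2.62%. Each site is a 500 bp bin of the mouse genome, build mm9. Bins were kept if they held at least 50 input reads for each of the 3 promoters. Activity is the log2 ratio of reporter to input reads with a pseudocount of 1, each scaled to its total over the kept bins, so 0 is the level of the average plasmid. A site has an activity of at most -1 with pR-Ea and of more than -1 with SCP1 and with pPGK. The sites were chosen by these measured activities in the 3 promoters, which are given below as a description, with no test.

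The library holds DNase hypersensitive sites, which are stretches of open chromatin, captured and cloned into the transcript of a reporter plasmid (CapStarr-seq). The cells were P5424, a mouse line of immature T cells. The reporter libraries used here were pR-Ea reporter RNA, SCP1 reporter RNA, pPGK reporter RNA, and pPGK reporter RNA from a library titled PMA_I, for PMA and ionomycin. Each was set against a plasmid input of its promoter, and the pPGK input served both pPGK libraries. All samples came from the same line, with a labelled amount of 50000000 cells each, and each group was 1 library, so no value has a replicate check and every difference is one between libraries. The treatment field names the stimulus for all samples, and the PMA_I library was told apart by its title. The sources used here do not say what the name pR-Ea stands for.

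A silencer is a stretch of DNA that lowers transcription from a promoter, and an enhancer one that raises it. Both act through the proteins they bind, and the same element can act differently on promoters that recruit different factors. SCP1, the super core promoter 1, is a synthetic promoter that combines several core promoter motifs. The pPGK promoter comes from the gene of phosphoglycerate kinase, an enzyme of glycolysis that most cells make. PMA activates protein kinase C and ionomycin lets calcium into the cell, and together they imitate signals from the T cell receptor. No neutral insert was used here as a baseline, so a site below input is not shown to silence.

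The used positions held 51450446 reporter and 18940646 input reads for pR-Ea, 54992717 and 45278192 for SCP1, and 48137015 and 17807985 for pPGK, with 61707100 reporter reads in PMA_I. The median site held 184 reporter and 165 input reads with pR-Ea, 423 and 411 with SCP1, and 336 and 151 with pPGK. Over all kept bins, sites included, the median was 487 reporter and 190 input reads with pR-Ea. The choice asked for few pR-Ea reporter reads against input, so the difference in reporter reads is not one of depth. Intervals below are exact (Clopper-Pearson) 95% intervals. They cover counting error only and are too narrow, since PCR copies are not independent molecules.

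Most sites lay close to the limit. Their pR-Ea activity had a median of -1.20 (quartiles -1.43 and -1.09), a level of 0.434 of input, against a median of -0.02 over all kept bins. Of the 809 sites, 454 lay above -1.25, 155 were at or below -1.5, and 29 at or below -2. The lowest was at -4.11. With SCP1 the sites had a median of -0.37 (quartiles -0.71 and 0.05), and with pPGK of -0.21 (quartiles -0.55 and 0.13), against medians of -0.16 and 0.07 over all kept bins. The medians of the sites were thus also below those of all kept bins with the other promoters.

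Of all kept bins, 2592 were at or below -1 with pR-Ea, which is 8.4%. The 809 sites made up 31.2% of these. Another 1193 bins, 46.0% of the pR-Ea low bins, were low with all 3 promoters, 396 were low with pR-Ea and SCP1, and 194 with pR-Ea and pPGK. For the other promoters the low bins were 14.9% of kept bins with SCP1 and 9.78% with pPGK. Of these low bins, 47.4% were low with SCP1 alone and 26.7% with pPGK alone.

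**Figure D1:**
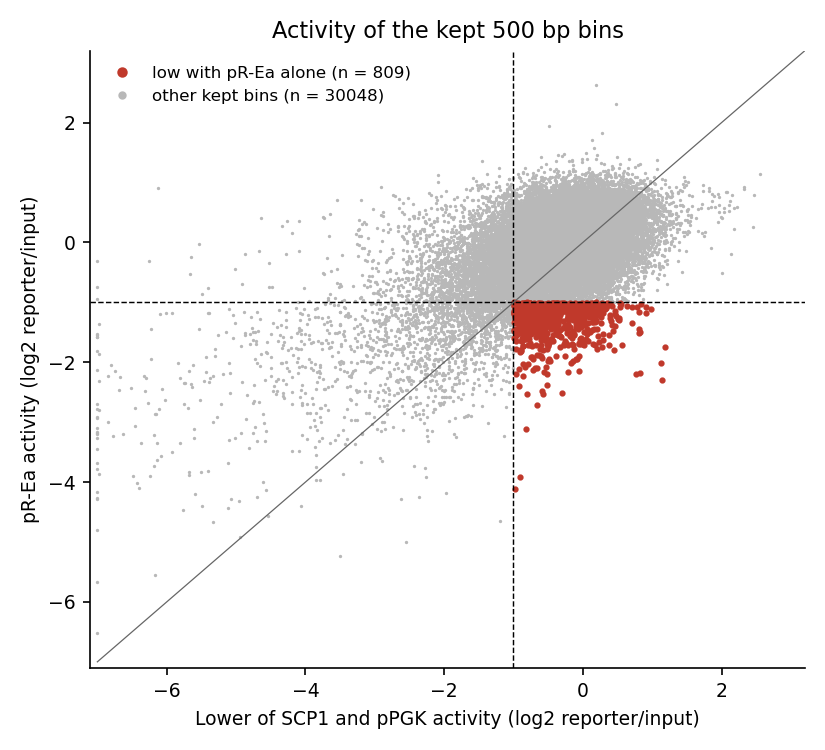
pR-Ea activity (vertical axis, log2 of reporter over input) against the lower of the SCP1 and pPGK activities (horizontal axis, same scale) for 809 sites (red) and 30048 other kept bins (grey). Dashed lines mark -1, the solid line marks equality, and values under -7 are drawn at -7; the red points crowd near the corner of the dashed lines, and few reach -2.

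The gap between pR-Ea and the other promoters varied widely. Taken as the lower of the SCP1 and pPGK activities minus the pR-Ea activity, it had a median of 0.77 (quartiles 0.48 and 1.19). It was at least 1, which is 2-fold, at 285 sites (35.2%), and under 0.5 at 215 sites (26.6%). At 544 of the 809 sites the counting interval of the pR-Ea activity lay wholly below those of both other libraries. The same reads chose the sites, the intervals are too narrow, and no share over all kept bins is given beside this count. Nothing further is read from it. With SCP1 and pPGK both above 0 there were 126 sites (15.6%), with neither above 0 there were 431, and 101 and 151 were above 0 with SCP1 only and with pPGK only. No share over all kept bins is given for these joint counts. Taken singly, 28.1% of the sites and 40.6% of all kept bins were above 0 with SCP1. With pPGK these were 34.2% and 54.4%. At least 2-fold above input were 20 sites with SCP1, where 3.78% of all kept bins were, and 18 with pPGK, where 3.84% were.

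Reporter and input shares were also compared between promoters; both entered the choice of sites. The share of pR-Ea reporter reads at a site was lower than the share of SCP1 reporter reads by a median log2 difference of -0.83, and lower than that of pPGK by -0.97. The corresponding medians over all kept bins were 0.21 and -0.03. The shares of input reads had medians at the sites of 0.08 for pR-Ea over SCP1 and 0.12 for pR-Ea over pPGK, against 0.06 and 0.07 over all kept bins. Single sites differed widely in input, with log2 differences of -2.76 to 2.81 for pR-Ea over SCP1. At chromosome 10, 59528001 to 59528500, pR-Ea over SCP1 was 0.08 for reporter reads and 1.31 for input reads. At chromosome 3, 80316001 to 80316500, it was 1.74 for reporter reads and 1.88 for input reads.

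Just inside the pR-Ea limit, among bins with at least 200 reads in each input, were sites on chromosome 2, 73730501 to 73731000, at -1.0018, chromosome 16, 87698501 to 87699000, at -1.0041, and chromosome 4, 14427001 to 14427500, at -1.0045. Just outside were bins on chromosome 2 at 104218001 to 104218500 (-0.9988), chromosome 11 at 29592501 to 29593000 (-0.9980) and chromosome 19 at 21665001 to 21665500 (-0.9968). At the SCP1 limit the nearest sites were at -0.9994, -0.9926 and -0.9860, and the nearest bins left out at -1.0006, -1.0014 and -1.0102. At the pPGK limit they were at -0.9975, -0.9871 and -0.9827, and -1.0333, -1.0375 and -1.0395. The counting interval of each of these values included -1; at the first site it ran from -1.15 to -0.85.

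The lowest pR-Ea activity among the 235 sites with at least 200 reads in each input was at chromosome 12, 32291001 to 32291500. It held 70 reporter and 451 input reads with pR-Ea, 491 and 391 with SCP1, and 328 and 270 with pPGK. The activities were -4.11 (95% interval -4.51 to -3.76) with pR-Ea, -0.01 with SCP1 (-0.21 to 0.18) and -0.97 with pPGK (-1.21 to -0.74). It was close to average with SCP1 and only just inside the limit with pPGK, where 49.7% of its reporter reads sat on 1 position; without that position its pPGK activity was -1.92. Its share of input reads was higher in pR-Ea than in SCP1 by 1.55 and than in pPGK by 0.79 (log2). In PMA_I its activity was -1.33. The kept bin directly before it, from 32290501 to 32291000, was low with all 3 promoters, at -3.02 with pR-Ea, -2.26 with SCP1 and -4.60 with pPGK. The second lowest was chromosome 8, 90541001 to 90541500, at -3.11 with pR-Ea (281 reporter and 898 input reads), -0.82 with SCP1 (704 and 981) and -0.79 with pPGK (487 and 352), and -0.49 in PMA_I. The bin after it, 90541501 to 90542000, gave 158 pR-Ea reporter reads against 503 input reads, 1 SCP1 reporter read against 321 and 65 pPGK reporter reads against 2125. Both of these sites thus touched a bin that was low with every promoter.

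Among the 8 sites with the lowest pR-Ea activity at 200 or more reads in each input, 4 touched a bin low with all 3 promoters. The 95% interval of this share ran from 15.7% to 84.3%. Of the 147 sites at that depth with a kept neighbour, 8.16% touched such a bin, and of all kept bins with a kept neighbour 4.42%. Besides the 2 sites described above, the 4 were on chromosomes 10 and 7. Next to 59528001 to 59528500 on chromosome 10, the bin after it had -3.23 with pR-Ea, -1.14 with SCP1 and -1.04 with pPGK. Next to 108650001 to 108650500 on chromosome 7, the bin before it had -1.26 with pR-Ea, -1.43 with SCP1 and -1.29 with pPGK.

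The site with the second widest gap at 200 or more reads in each input had no such neighbour. Chromosome 4, 129374001 to 129374500, held 172 reporter and 293 input reads with pR-Ea, 2836 and 1317 with SCP1, and 994 and 223 with pPGK. Its activity was -2.20 with pR-Ea (95% interval -2.49 to -1.93), 0.76 with SCP1 (0.67 to 0.86) and 0.90 with pPGK (0.69 to 1.12). This site was below average with pR-Ea and above average with both other promoters, a gap of 2.97, and it had 0.63 in PMA_I. On 1 position lay 29.9% of its pPGK reporter reads, and without that position the pPGK activity was 0.98. The kept bin before it, 129373501 to 129374000, had activities of -0.17, 0.65 and 0.39 in the same order. Chromosome 13, 23853001 to 23853500, was the site with the largest SCP1 activity among those named by depth and gap. It had -1.26 with pR-Ea (756 reporter and 667 input reads), 1.98 with SCP1 (7212 and 1438) and 0.40 with pPGK (1060 and 337), and -0.01 in PMA_I.

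One site, chromosome 13, 105398501 to 105399000, was among both the widest gaps and the largest pR-Ea inputs. It held 3190 reporter and 3817 input reads with pR-Ea, 9933 and 7365 with SCP1, and 7731 and 3245 with pPGK. The activities were -1.70 with pR-Ea (95% interval -1.77 to -1.63), 0.09 with SCP1 (0.05 to 0.13) and -0.0022 with pPGK (-0.06 to 0.06). Its pR-Ea reporter reads were spread over 356 positions, and the most read of them held 2.38%. In PMA_I its activity was -0.08. On plus strand positions the pR-Ea activity was -1.71 and on minus strand positions -1.68. The bin before it, 105398001 to 105398500, also qualified as a site, at -1.40 with pR-Ea, 0.46 with SCP1 and 0.59 with pPGK.

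The other sites among the lowest or the widest gaps at that depth were chromosome 4, 131356501 to 131357000, at -2.72 with pR-Ea, and chromosome 4, 94827501 to 94828000, at -2.52. Chromosome 10 held 2 more, 59528001 to 59528500 at -2.20 and 126415001 to 126415500 at -2.19, and chromosome 7 held 1, 108650001 to 108650500 at -2.12. In these 5 sites SCP1 ranged from -0.97 to -0.30 and pPGK from -0.73 to -0.10. None of them reached the average of the kept bins with SCP1 or pPGK. The 5 sites with the most pR-Ea input reads, 2802 to 3884, include the one on chromosome 13 at 105398501; the other 4 had pR-Ea activities of -1.18 to -1.04 and gaps of 0.14 to 0.55. With every listed line counted, those on chromosome 15, 93105501 to 93106000, and chromosome 3, 80316001 to 80316500, had -0.99 and -0.98 with pR-Ea and were no longer sites, and with the plus strand line kept that on chromosome 3 had -0.98. At these 4 the promoters differed by less than at the site on chromosome 13, whose gap was 1.69.

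**Figure D2:**
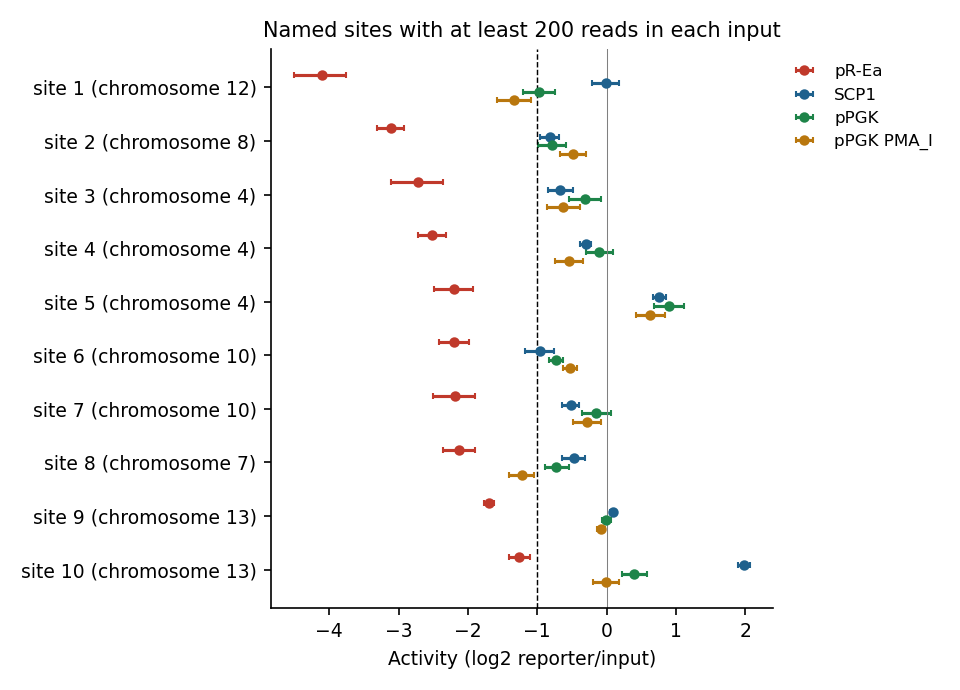
Activity (horizontal axis, log2 of reporter over input) of the 10 sites with the lowest pR-Ea activity or the widest gap among sites with at least 200 reads in each input, with exact 95% counting intervals, in pR-Ea (red), SCP1 (blue), pPGK (green) and pPGK PMA_I (brown). Sites run from the lowest pR-Ea activity, -4.11, at the top to the highest, -1.26, at the bottom, and at each the red point lies left of the dashed line at -1.

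The share of bins that were sites was lowest in the deepest bins. It was 3.15% (95% interval 2.76 to 3.57) of bins with 50 to 99 pR-Ea input reads, 2.69% (2.36 to 3.05) with 100 to 199, 2.75% (2.43 to 3.10) with 200 to 499 and 1.61% (1.29 to 1.98) with 500 or more. The share of bins low with pR-Ea was, in the same order, 8.33%, 8.05%, 7.95% and 9.81%, highest in the deepest bins. Of the pR-Ea low bins, 37.8% were sites in the thinnest class and 16.4% in the deepest. The median gap of the sites was 0.88, 0.82, 0.75 and 0.48 in the same order. The narrowest gaps were thus those of the deepest bins.

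**Figure D3:**
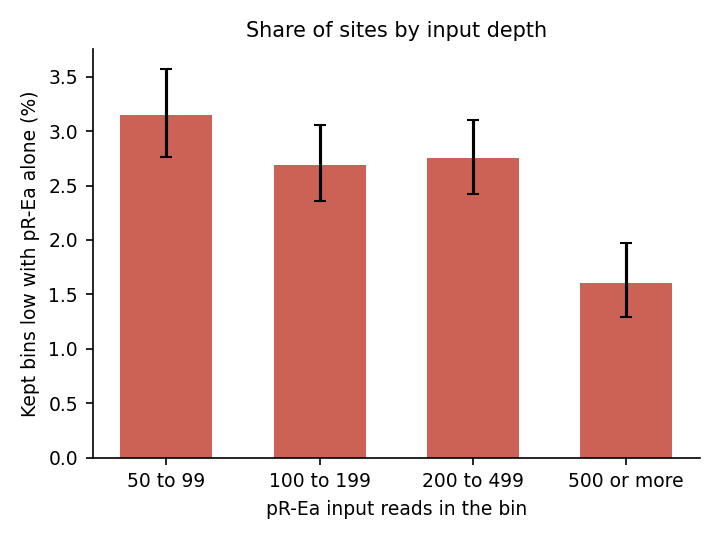
Share of kept bins that were sites low with pR-Ea alone (vertical axis, percent) by the number of pR-Ea input reads in the bin (horizontal axis), with exact 95% binomial intervals as error bars. The bar falls to 1.61% in bins with 500 or more input reads, against 3.15% in those with 50 to 99.

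Counted by distinct 5' end positions in place of reads, the pR-Ea activity of the sites had a median of -0.46, and 784 of the 809 sites were below 0, where 42.9% of all kept bins were. The limit of -1 was met by 51 sites (6.30%), where 1.58% of all kept bins met it. Removing the position with the most reporter reads from every bin left the median at -1.29, with 797 sites at or below -1, where 9.46% of all kept bins were. At or below -1 were then also 61 sites with SCP1, where 17.3% of all kept bins were, and 44 with pPGK, where 10.8% were. This removal takes out the most reporter reads, and before it 8.4% of all kept bins were that low with pR-Ea. Position counts and the remaining reads come from the reads that chose the sites, so nothing further is read from these shares.

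With at least 25 input reads per strand and promoter, 492 sites could be read on both strands. Of these, 368 were at or below -1 with pR-Ea on both strands and 124 on 1 strand. Of the 20280 kept bins that could be read on both strands, 1066 were low on both and 753 on 1. On plus strand positions 87.6% of 622 sites were low with pR-Ea, and on minus strand positions 86.1% of 653, where all kept bins gave 8.5% and 8.17%. The same reads chose the sites, so nothing further is read from these shares.

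The PMA_I library was the only reporter library whose reads did not enter the choice, though its input did. The sites had a median PMA_I activity of -0.19 (quartiles -0.57 and 0.22), against -0.21 with pPGK, and all kept bins had 0.03 and 0.07. Of the 809 sites, 59 were at least 2-fold below input in PMA_I, or 7.29% (95% interval 5.60 to 9.31), where 10.2% of all kept bins were. At least 2-fold above input were 34 sites, or 4.20% (2.93 to 5.82), where 7.36% of all kept bins were. The choice required pPGK above -1, and PMA_I shares its promoter and input, so values near input were in large part fixed by the choice. With the limit moved to -1.5 for all 3 promoters, 49 of 295 sites (16.6%) were at least 2-fold below input in PMA_I. That limit also admits bins with pPGK activities between -1.5 and -1. Of the 809 sites, 155 were at or below -1.5 with pR-Ea, and 10 of these (6.45%) were that low in PMA_I. By distinct positions 4 of 104 (3.85%) were, where 1.91% of all kept bins were. The sign of the median depends on the scaling: with the input counts listed in the PMA_I file it was 0.07 at the sites and 0.28 over all kept bins. The difference of the 2 medians was -0.22 with the main scaling and -0.21 with that one.

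Sites with a wider gap had higher PMA_I activity. The 285 with a gap of at least 1 had a median of 0.08 in PMA_I and 5 of them were at least 2-fold below input, whereas the 524 with a smaller gap had a median of -0.34 and 54 below. The gap includes the pPGK activity, which shares its input with PMA_I. Across the 809 sites the Spearman rho of PMA_I activity was 0.79 with pPGK, 0.29 with SCP1 and -0.01 with pR-Ea, and across all 30857 kept bins 0.86, 0.46 and 0.39. The pPGK and PMA_I values share an input, and the choice of sites cut the range of the other activities.

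**Figure D4:**
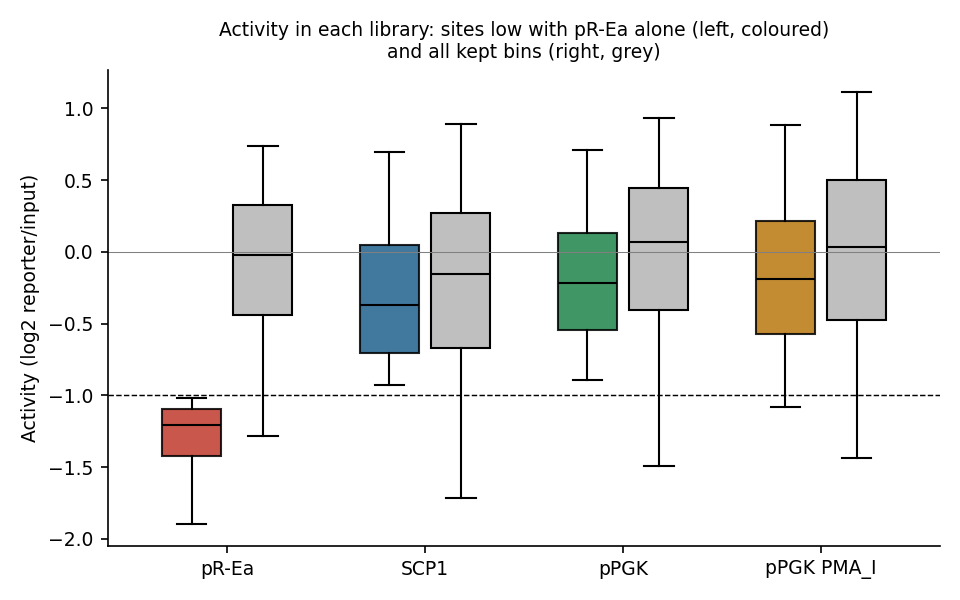
Activity (vertical axis, log2 of reporter over input) of the 809 sites (left box of each pair, coloured) and of all 30857 kept bins (right box, grey) in each reporter library. Boxes show the quartiles and the median, and whiskers the percentiles 5 and 95; the pR-Ea box of the sites lies below the dashed line at -1, and their PMA_I box has its median at -0.19.

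PMA_I and pPGK reporter reads were also compared directly. The score limit of 30 had removed reporter reads from pPGK only: 66.7% were kept there, against 100% in PMA_I. Their log2 ratio, PMA_I over pPGK, had a median of 0.04 at the sites (quartiles -0.20 and 0.24) and 0.02 over all kept bins. It was at least 1 at 4 sites (0.494%), where 1.36% of all kept bins were that much higher, and at most -1 at 9 sites (1.11%), where 0.677% were that much lower. Named after their values were seen, the 4 higher sites were chromosome 6, 39361501 to 39362000 (log2 1.11), chromosome 16, 70480001 to 70480500 (1.04), chromosome 3, 137806001 to 137806500 (1.01), and chromosome 3, 89697001 to 89697500 (1.01). Of their pPGK reporter reads, 3.08%, 73.6%, 39.3% and 0% in the same order lay at positions scored under 30 and were left out. In PMA_I no reporter reads were left out. The second of these sites rests on the most reads used, 3117 in PMA_I against the 1316 kept in pPGK. Its activities were -1.41 with pR-Ea, -0.18 with SCP1, 0.57 in PMA_I and -0.47 with pPGK.

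Among the sites with at least 200 reads in each input, chromosome 19, 10826001 to 10826500, had the highest PMA_I activity, 1.06 (95% interval 0.86 to 1.27), with 1362 PMA_I reporter reads against 591 with pPGK. Its activity was -1.73 with pR-Ea, -0.74 with SCP1 and 0.06 with pPGK. Chromosome 9, 19426001 to 19426500, followed at 0.78 in PMA_I and chromosome 12, 110833501 to 110834000, at 0.68. The lowest PMA_I activities were -1.45 at chromosome 2, 139815501 to 139816000, -1.44 at chromosome 19, 53217001 to 53217500, and -1.37 at chromosome 4, 142752001 to 142752500. These 3 had pPGK activities between -0.91 and -0.86, near the limit.

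Kept bins next to a site held other fragments than the site, since each fragment was placed by its midpoint. There were 419 such bins, of which 48 were sites themselves. Their median pR-Ea activity was -0.56 (quartiles -1.01 and -0.14), against -0.01 over the 16207 kept bins with a kept neighbour. At or below -1 with pR-Ea were 110 of the 419 (26.3%), where 8.57% of the 16207 were. With the 48 sites left out, the remaining 371 had a median of -0.47 and 62 were low (16.7%). The lower pR-Ea output was thus seen in adjoining bins too. Fragments placed near a bin edge reach into the next bin.

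The other promoters were lower beside the sites as well. The 419 bins had medians of -0.38 with SCP1, -0.22 with pPGK and -0.23 in PMA_I, against -0.14, 0.01 and -0.10 over the 16207. The distance between the 2 medians was thus widest for pR-Ea. This was not particular to these sites. Kept bins beside those low with SCP1 alone had a median of -0.73 with SCP1. Beside those low with pPGK alone the pPGK median was -0.59. At 1000 bp the pR-Ea medians were 0.01 (57 bins before the site) and -0.10 (43 bins after it). Farther out they were -0.31 (29 bins) and -0.19 (20 bins) at 1500 bp, and -0.56 (12 bins) and -0.43 (11 bins) at 2000 bp. SCP1 was low in 85 of the 419 bins (20.3%), where 14.7% of the 16207 were, and pPGK in 57 (13.6%), where 11.1% were. PMA_I was also low in 57, where 12.3% were. Neighbouring bins share the libraries and adjoining DNA with the sites.

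**Figure D5:**
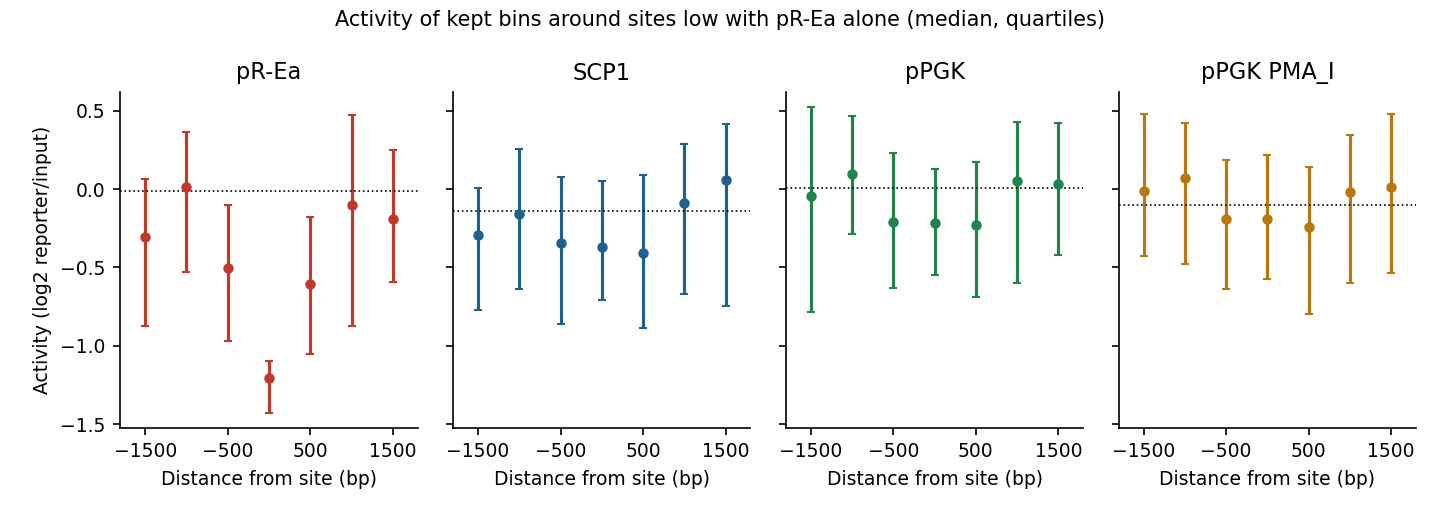
Median activity (vertical axis, log2 of reporter over input) of kept bins by distance from a site (horizontal axis, bp), with quartiles as bars, in pR-Ea, SCP1, pPGK and pPGK PMA_I. The dotted line is the median of all kept bins with a kept neighbour; at 500 bp on either side the pR-Ea medians are -0.50 and -0.61, at 1000 bp 0.01 and -0.10, and at 1500 bp -0.31 and -0.19.

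Of 402 sites with a kept neighbour, 26 touched a bin low with all 3 promoters, or 6.47% (95% interval 4.27 to 9.33), where 4.42% of all kept bins with a kept neighbour did. Among sites at or below -1.5 with pR-Ea this was 13 of 81 (16.0%, interval 8.83 to 25.9), and among the other sites 13 of 321 (4.05%, interval 2.17 to 6.83). For comparison, 59.8% of the bins low with all 3 promoters with a kept neighbour touched another of their kind. Such a bin was also touched by 5.12% of those low with SCP1 alone and 5.51% of those low with pPGK alone.

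Most sites stood by themselves. Of the 809 sites, 761 did not touch another, and 24 pairs of adjacent sites made up the rest; no run was longer than 2 bins. The pair with the lowest mean was chromosome 1, 73953501 to 73954000 and 73954001 to 73954500, at -1.24 and -2.11 with pR-Ea. The next were chromosome 2, 165533501 to 165534000 and 165534001 to 165534500, at -1.45 and -1.83, and chromosome 11, 33989501 to 33990000 and 33990001 to 33990500, at -1.70 and -1.44. The pair on chromosome 11 was above average with pPGK in both bins, at 0.68 and 1.22. With SCP1 its first bin was above average, at 0.38 (95% interval 0.22 to 0.54), and its second near average, at -0.07. The pairs on chromosomes 1 and 2 were below 0 with both promoters in both bins.

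In position along the genome, 806 sites lay on the autosomes and X and 3 on pieces labelled random. On the autosomes and X, the share of kept bins that were sites ranged from 1.68% on chromosome 14 (18 of 1074, 95% interval 0.996 to 2.64) to 3.58% on chromosome 10 (57 of 1592, interval 2.72 to 4.61). Kept bins with no kept neighbour held 50.3% of the sites, and 47.5% of all kept bins had none. In stretches of 3 or more kept bins, 18 of 80 sites (22.5%) were the bin with the most input, where 30.1% of all bins in such stretches were. In stretches of 2 bins, 142 of 322 sites (44.1%) had more input than their partner.

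Bins low in other ways were set beside the sites in PMA_I. Of the 809 sites, 7.29% were at least 2-fold below input there, and of 2174 bins low with SCP1 alone 8.10% were, with medians of -0.19 and -0.22. The share was 62.7% of 805 bins low with pPGK alone and 83.8% of 1193 bins low with all 3 promoters, both of which were chosen for low pPGK output with the same input. With 1 library per group none of these differences was tested.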

How the data were processed

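CapStarr-seq reads of 4 reporter libraries and 3 inputs were used as deposited. Bowtie2, SAMtools and bedtools 2.28.0 with build mm9 are named, per the submitters' processing notes; their order and settings are not stated. As deposited, the files list fragments, mostly of 315 bp, with whole-number read counts in columns 7 and 8, and a mapping quality score in column 5. Column 7 was read as reporter and column 8 as input, which no label states: the deposited column 8 counts were equal at all 5258758 positions shared by the pPGK files. The lowest deposited score was 30 in the pR-Ea and SCP1 files and 0 in the pPGK files. Lines scored under 30 were left out, which kept 66.7% of pPGK reporter reads and 100% of PMA_I reporter reads. Where a 5' end had a line for each strand, with equal counts, only the first was used. PMA_I reporter reads were divided by the input of the pPGK file. After the score limit, 17807985 input reads were used from that file, where the PMA_I file had 21682293.

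Fragments were placed by midpoint in 500 bp bins. Activity, limits and intervals are as given above. With 1 library per group there is no test. Named sites were those with the lowest pR-Ea activity (8) or the widest gap (8) at 200 or more reads in each input, the most pR-Ea input reads (5), the values nearest each limit (3 on either side), the highest and lowest PMA_I activity (3 each) and the longest runs (3). The sites, rules and alternatives were chosen with earlier results of these data known. The member rule was run on simulated counts with Poisson (counting) error only, in which unchanged bins followed their input. These lack the added spread of PCR copies, so they check the code and not the error of the sites. No genome of build mm9 was used, so no sequence or gene is given. Python 3.11.15, numpy 2.4.6, pandas 2.3.3 and scipy 1.17.1 were used.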

Additional observations from a re-analysis of the deposited data

Results flagged for a closer look

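Some sites were at least 2-fold below input with pR-Ea and at least 2-fold above it with another promoter, a difference that was not tested. There were 20 with SCP1, where 3.78% of all kept bins were that far above input, 18 with pPGK (3.84%) and 34 in PMA_I (7.36%). The 3 sites that were above with both SCP1 and pPGK, named after their values were seen, were chromosome 4, 155153001 to 155153500, chromosome 16, 95006501 to 95007000, and chromosome 7, 67990001 to 67990500. No share over all kept bins is given beside this count of 3. The first had 50 reporter and 91 input reads with pR-Ea, 1154 and 200 with SCP1, and 490 and 92 with pPGK, or activities of -2.29, 2.18 and 1.15. Of its pPGK reporter reads 74.5% sat on 1 position, and without that position its pPGK activity was -0.78. Its SCP1 activity was 2.12 without the most read position, but -0.21 by distinct positions. The score limit had left out 36.7% of its pPGK reporter reads. The second was at -2.02 with pR-Ea, 1.13 with SCP1 and 1.16 with pPGK, and the third at -1.74, 1.18 and 1.59. At the second the pPGK input held 65 reads, and 40.1% of the pPGK reporter reads were left out. At the third the pR-Ea input held 52 reads, and 1.52% of the pPGK reporter reads were left out. The highest PMA_I activity, 2.70, was at chromosome 2, 26226501 to 26227000, which had -1.49 with pR-Ea, 0.82 with SCP1 and 1.72 with pPGK. Its pPGK input, used for both pPGK libraries, held only 83 reads, and by distinct positions its PMA_I activity was 0.58. The score limit had left out 26.4% of its pPGK reporter reads.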

How the results depend on the processing

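The number of sites, 809, was 1471, 235 and 19613 with an input minimum of 25, 200 and 1 reads, 104 by distinct positions, 1333 and 295 with limits of -0.75 and -1.5, and 285 with a gap of at least 1. Of the 104, 44 were among the 809. The median PMA_I activity of the sites, -0.19, was -0.052, -0.35 and 0.44 with these input minimums, -0.28 by positions, -0.094 and -0.43 with these limits, 0.083 with the gap, 0.32 without the score filter and 0.072 with the input of its own file. The last 2 settings moved the median of all kept bins to 0.55 and 0.28, and the sites lay -0.23 and -0.21 from it, against -0.22 before; with an input minimum of 1 and with the gap they lay 0.26 and 0.05 above it. Sites at least 2-fold below input in PMA_I, 59, numbered 103, 24 and 1677 with these input minimums, 4 by positions, 37 and 49 with these limits, 5 with the gap and 35 with the input of its own file. The median pR-Ea activity beside sites, -0.56, was -0.75 and -0.32 with input minimums of 200 and 1, -0.41 by positions, -0.42 and -1.16 with these limits, and -0.44 with the gap. A lower minimum adds bins with few reads, and another limit or gap chooses other bins; the cause of the other changes was not tested. The other settings, including bins shifted by 250 bp, a median of 0, other pseudocounts and leaving out the most read position, gave 764 to 895 sites. The PMA_I input from its own file and both other treatments of 5' ends on both strands were added after the data were seen. With the same bin edges and limit of -1, 14 settings gave 359 values of the 26 activities of named sites. None changed sign, but the same reads chose these sites, so the signs were largely fixed by the choice. By distinct positions all 26 lay outside their counting interval. The pR-Ea activity then stayed at or below -1 at chromosome 12, 32291001 to 32291500, and chromosome 8, 90541001 to 90541500. It also did at chromosome 4, 94827501 to 94828000 and 129374001 to 129374500. At the other sites with a pR-Ea activity among the 26 it was above -1. No paired analysis was possible because each group is 1 library.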

Other observations

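Reads at positions scored under 30 in the pPGK file were not used. They made up a median of 2.10% of the pPGK reporter reads of a site and 1.82% of its input reads, against 1.68% and 1.53% over all kept bins. More than 10% of the pPGK reporter reads were left out at 223 of the 809 sites (27.6%), and at 28.7% of all kept bins. Of the 1193 bins low with all 3 promoters, 61.5% had lost more than 10%. Among the leading sites the share left out was 34.5% at chromosome 12, 32291001 to 32291500, 47.6% at chromosome 8, 90541001 to 90541500, and 6.22% at chromosome 13, 105398501 to 105399000.

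The largest fall of PMA_I relative to pPGK among the sites, chosen after its values were seen, was at chromosome 9, 3015001 to 3015500, with 301 reporter reads in PMA_I and 3632 with pPGK. At this site 90.6% of the pPGK reporter reads lay at positions scored under 30 and were left out. Its input held 1659 reads with pPGK, 281 with pR-Ea and 144 with SCP1. The site with the fewest pR-Ea reporter reads was chromosome 19, 24166501 to 24167000, with 13 against 77 input reads, an activity of -3.92 (95% interval -4.98 to -3.15).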
